A study of Rattus norvegicus with 2 samples.

Results

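Narrow Creb3l1 peaks that stood in close groups were described here. They were chosen from the called peaks by 2 values only. A peak was kept if it was under 200 bp wide and if the next peak on the same chromosome began, or the one before it ended, less than 300 bp away. This held for 537 of 2063 peaks, and they are called narrow grouped peaks below. They were set beside the 1055 peaks that were just as narrow but had no such neighbour, called lone narrow peaks. Width and gap come from the same ChIP signal as height and enrichment, so all values are descriptions and none was tested.

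The peaks came from chromatin immunoprecipitation sequencing (ChIP-seq), in which DNA bound by a protein is pulled down with an antibody and sequenced. There was 1 Creb3l1 ChIP library, made with a rabbit polyclonal antibody, and 1 input library of chromatin that was not immunoprecipitated. Both came from punches of the supraoptic and paraventricular nuclei of male Sprague Dawley rats of 250 to 274 g, taken after 72 h of water deprivation and pooled over 9 animals. There was thus no group with free access to water and no replicate library, so no value has an error between animals. The punches were enriched for magnocellular neurones but also hold other cells, and a peak list holds no expression levels against which the cell type could be checked. In pooled tissue, binding in few cells and weak binding in many cells cannot be told apart.

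Creb3l1 is a transcription factor of the basic leucine zipper family. It is made as a protein of the endoplasmic reticulum membrane, and on stress it is cut in the Golgi so that its N-terminal part enters the nucleus. Magnocellular neurones make vasopressin and oxytocin in large amounts, and water deprivation raises that demand. Transcription factors often bind several sites within one promoter or enhancer, and a peak caller may list such a stretch as 1 wide peak or as several narrow ones.

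The 537 narrow grouped peaks made up 76.7% of the peaks found in close groups and belonged to 302 groups. Of these groups, 243 had 2 peaks, 47 had 3 and 12 had 4. Groups made of narrow peaks alone numbered 175 and held 370 of the 537, while the other 167 shared 127 groups with at least 1 peak of 200 bp or more. Most members stood at the edge of a group, since 490 (91.2%) had a neighbour on 1 side and 47 (8.75%) on both. This follows largely from group size, as 399 of the 537 were in groups of 2, which have no inner peak. Narrow and wide peaks had a close neighbour about equally often. One was found for 33.7% of narrow peaks (95% Wilson interval 31.5 to 36.1%) and for 34.6% of wide peaks (30.5 to 39.0%).

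The groups of 4 were the largest but not the typical form. They were 12 of the 302 groups, of which 175 held narrow peaks alone, among them 156 pairs. The groups of 4 spanned 571 to 1790 bp, with a median of 1046 bp, and held 31 of the 537 narrow grouped peaks. The height of a peak is given as fragments, the number of extended ChIP reads that overlap its summit. Each read is extended to the fragment length of the peak caller, here 55 bp, which is not the length of the sheared DNA. The narrow peaks of these groups had 14 to 31 fragments with a median of 18. In 10 of the 12 groups a wide peak was the tallest.

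**Figure D1:**
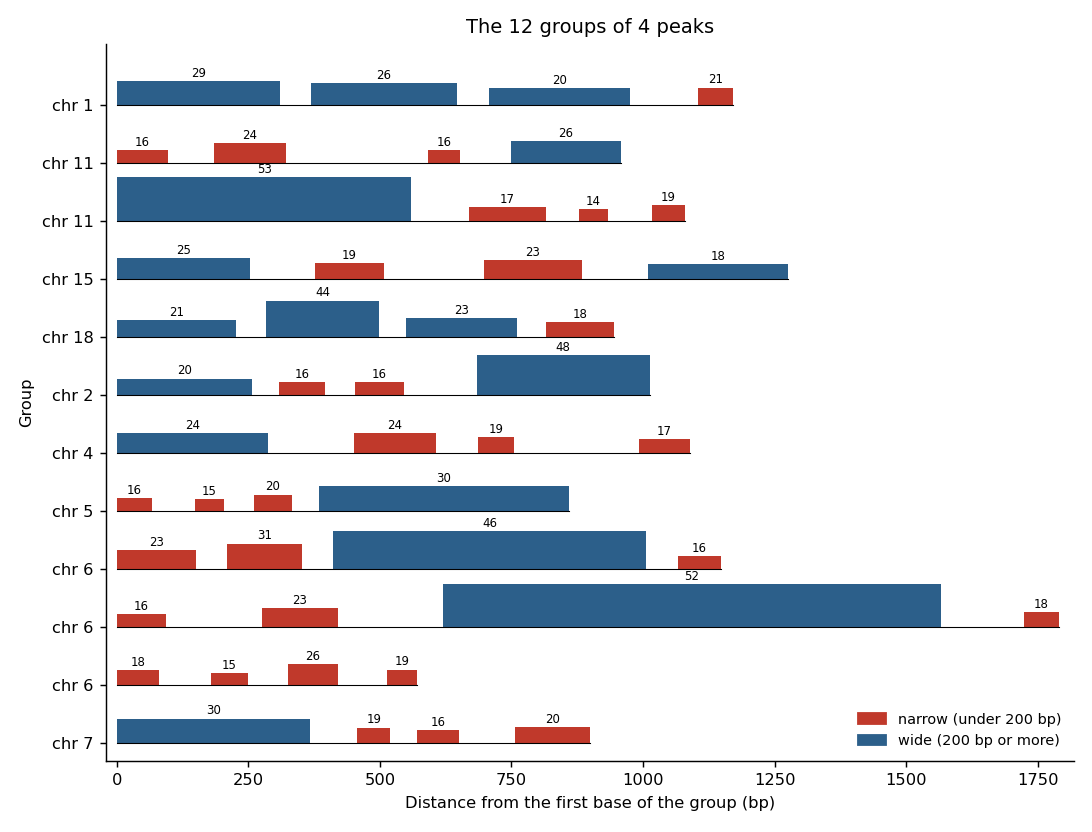
The 12 groups of 4 peaks drawn to scale from their first base, with distance in bp on the x axis, 1 group per line named by its chromosome, narrow peaks in red and wide peaks in blue. Bar height and the number above each bar give the ChIP fragments at the summit, the narrow peaks have 14 to 31 fragments, and the tallest peak is a wide one in 10 of the 12 groups.

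One group consisted of narrow peaks alone. It lay on chromosome 6 from 111641763 to 111642333 (rn6, as all positions here), and its peaks were 81, 70, 95 and 58 bp wide. They had 18, 15, 26 and 19 fragments. The enrichment at a summit is given as fold, the ChIP pileup over the background estimated from the input, and it was 5.55, 4.30, 3.99 and 4.67. The third peak had the most fragments but the lowest fold, because its background was 5 where the others had 2.04 to 2.81. The 95% exact Poisson intervals of the 4 folds all overlapped, the lowest running from 2.66 to 5.77 and the highest from 3.42 to 8.58.

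The widest of these arrangements lay on the same chromosome, the next group before this one, with 164087 bp free of peaks between them. It ran from 111475886 to 111477675 around the peak of highest fold in the list, 948 bp wide with 52 fragments. Narrow peaks of 16 and 23 fragments lay before that wide peak and one of 18 after it, with folds of 3.78, 5.32 and 5.55. The third group on chromosome 6, from 26537362 to 26538510, had the same form. A wide peak of 46 fragments had narrow peaks of 23 and 31 fragments on one side and one of 16 on the other, at folds of 5.44, 7.09 and 3.78.

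A row of 3 narrow peaks on one side of a wide peak was seen on 4 other chromosomes. On chromosome 5, from 136405431 to 136406290, peaks of 16, 15 and 20 fragments led up to a wide peak of 30, and their folds were 3.78, 4.68 and 5.83. On chromosome 11, from 86890328 to 86891406, a wide peak of 53 fragments was followed by narrow peaks of 17, 14 and 19, with folds of 4.85, 3.99 and 5.32. On chromosome 7, from 35069804 to 35070702, the wide peak had 30 fragments and the narrow ones 19, 16 and 20, at folds of 5.19, 4.81 and 5.36. These 9 narrow peaks had at most 20 fragments, fewer than the wide peak of their own group. On chromosome 4, from 157347382 to 157348470, the narrow peaks had 24, 19 and 17 fragments and folds of 5.54, 5.71 and 5.19. The first of them equalled the wide peak, which also had 24 fragments.

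A second group of this form on chromosome 11, from 61530576 to 61531533, had narrow peaks of 16, 24 and 16 fragments before a wide peak of 26 that was 209 bp wide. Their folds were 4.72, 6.96 and 4.15. The last 4 groups had fewer narrow peaks. On chromosome 2, from 22797322 to 22798334, a pair of narrow peaks with 16 fragments and a fold of 4.97 each stood between wide peaks of 20 and 48 fragments. On chromosome 15, from 14017791 to 14019065, narrow peaks of 19 and 23 fragments, with folds of 5.75 and 6.77, stood between wide peaks of 25 and 18. A single narrow peak closed each of the other two. It had 21 fragments and a fold of 6.21 on chromosome 1, in the group from 82108189 to 82109360, and 18 fragments and a fold of 4.22 on chromosome 18, from 74156145 to 74157088. The other 3 peaks of both groups were wide.

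Most neighbours lay much closer together than the limit of 300 bp. Between 2 successive narrow peaks of a group, 220 pairs in all, the gap ran from 50 to 292 bp with a median of 88.5 bp and quartiles of 66 and 157 bp. A gap under 100 bp was found for 124 pairs (56.4%, 49.8 to 62.8%), and the number fell to 36 from 100 to 150 bp and to 10 from 250 to 300 bp. Beyond the limit there were 7 pairs from 300 to 350 bp, 8 from 350 to 400 bp and none from 700 to 1000 bp. The summits of the 220 pairs lay 77 to 435 bp apart, with a median of 207.5 bp, and 54 pairs fell between 150 and 200 bp and 53 between 200 and 250 bp. The gap to a wide neighbour was similar. For the 144 pairs of a narrow and a wide peak its median was 77.5 bp (95% interval from order statistics 72 to 90 bp), against 81 to 101 bp for the median of the narrow pairs. The summits of the 144 pairs were 312 bp apart at the median, since the length of the wide peak enters that distance.

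**Figure D2:**
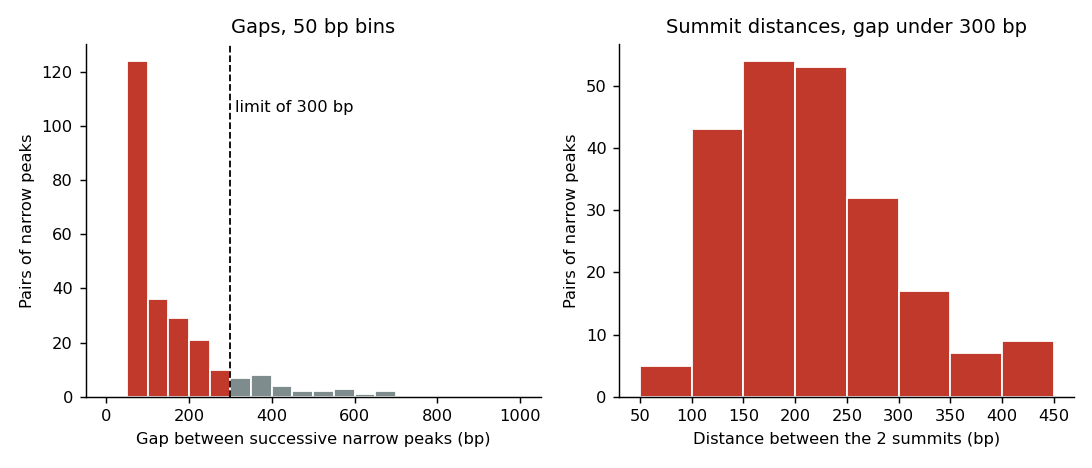
Left, the number of successive pairs of narrow peaks by the gap between them in bins of 50 bp, red under the limit of 300 bp and grey above it, and right, the distance between the 2 summits of the 220 pairs under the limit. The first filled bin, 50 to 100 bp, holds 124 pairs, and summit distances are most frequent from 150 to 250 bp.

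The shortest gap, 50 bp, was shared by 5 pairs, on chromosomes 2, 6, 7, 9 and 11. MACS2, the peak caller used by the authors, joins stretches of signal that are closer together than a set distance, by default the read length, so the lower end of the range depends on the caller. The closest pair by width was on chromosome 6 from 126636190 to 126636349, where both peaks had the shortest width of the list, 55 bp, with 18 and 20 fragments and folds of 4.22 and 6.13. The longest gap within the limit, 292 bp, lay between narrow peaks of 28 and 15 fragments on chromosome 6 that began at 50269969 and 50270387. Just beyond the limit was a gap of 303 bp on chromosome 7, between peaks of 24 and 15 fragments that began at 11444031 and 11444389. The first of these had another neighbour at 74 bp and counted as grouped, and the second counted as lone. At the limit of width, grouped peaks of 199 bp were found on chromosomes 3 and 18 with 32 and 20 fragments, and grouped peaks of 200 bp, just too wide, on chromosomes 6 and 10 with 18 and 28.

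The lengths of the groups follow from the widths and gaps that chose the peaks and are given as a description. The 156 pairs made of narrow peaks alone spanned 184 to 547 bp with quartiles of 257.5, 308 and 376.5 bp. Beside them, the 308 wide peaks without a neighbour, which are at least 200 bp wide by the same limit, had width quartiles of 239, 300 and 391.25 bp. Within such a pair the peaks themselves covered 67.3% of the span at the median. The 18 groups of 3 narrow peaks spanned 336 to 786 bp, with a median of 541 bp.

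Narrow grouped peaks were slightly lower than lone narrow peaks. They had 13 to 49 fragments with quartiles of 17, 19 and 23, whereas lone narrow peaks had 13 to 54 with quartiles of 18, 21 and 25. The median fold was 5.26 for grouped (95% interval of the median from order statistics 5.08 to 5.32) and 5.50 for lone peaks (5.32 to 5.55). A fold of at least 5 was given for 295 of the 537 (54.9%, 50.7 to 59.1%) and for 64.2% of lone narrow peaks (61.2 to 67.0%), where the share among all peaks was 66.9%. Peaks of 1 group lie on neighbouring DNA and are not independent, so these intervals are too narrow by an unknown amount. With only the first narrow peak of each of the 302 groups, by position, the median was again 19 fragments, with a fold of 5.26 and an interval of 5.00 to 5.37 that overlapped that of the lone peaks.

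The order of the medians of fold held at a q-value of 0.01 and turned at 1e-05. The q-value of a peak is its p-value corrected for the positions tested. At 0.01 or less it passed 509 of the 537 (94.8%, 92.6 to 96.4%), near the 96.8% of all peaks. At 1e-05 or less it passed 236 (43.9%, 39.8 to 48.2%), against 54.7% (51.7 to 57.7%) of lone narrow peaks and 59.7% of all peaks. With groups formed anew from the peaks that passed 0.01, the median fold was 5.26 for grouped and 5.54 for lone narrow peaks. With groups formed anew at 1e-05, it was 6.42 (6.13 to 6.65) for grouped and 6.20 (6.13 to 6.38) for lone narrow peaks. The direction thus turned, but the intervals overlapped. The lone peaks at 1e-05 also took in 110 of the 236 members, whose neighbours had not passed. The medians of fragments were then 23 and 24.

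The share of narrow peaks with a close neighbour fell with height up to 29 fragments and was higher in the tallest class. A close neighbour was found for 43.0% of narrow peaks with 13 to 15 fragments (34.3 to 52.2%, 114 peaks). The share was 33.6% at 20 to 21 fragments, 25.1% at 22 to 24 and 22.8% at 25 to 29 (17.9 to 28.7%, 232 peaks). Among the tallest narrow peaks, with 30 fragments or more, it was 36.8% (29.1 to 45.1%, 136 peaks). The intervals of the lowest and the tallest peaks thus overlapped, and both lay above that of the peaks with 25 to 29 fragments.

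**Figure D3:**
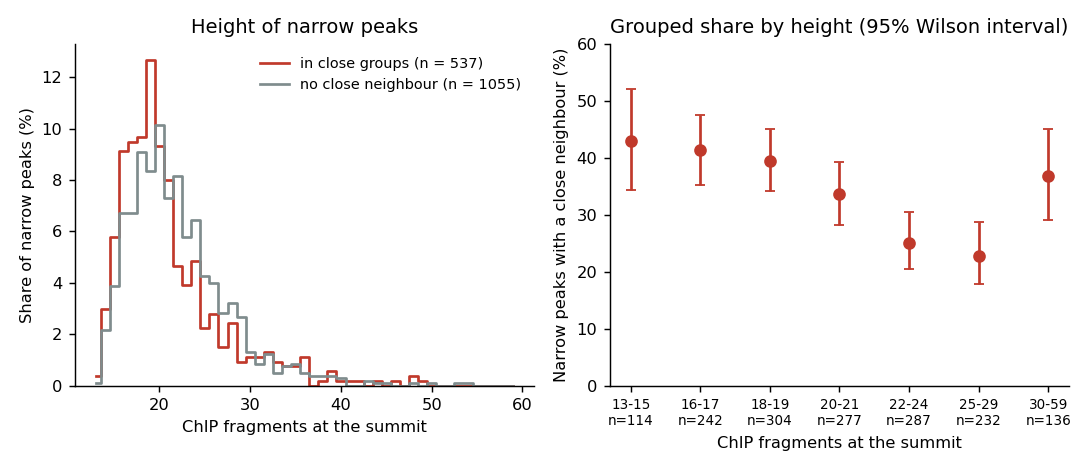
Left, the share of narrow peaks in percent at each number of ChIP fragments at the summit, for peaks in close groups (red) and without a close neighbour (grey), and right, the share of narrow peaks with a close neighbour by class of height, with 95% Wilson intervals and the number of peaks under each class. The red line is above the grey one from 13 to 19 fragments and under it from 22 to 29, with no steady order beyond, and the share falls from 43.0% at 13 to 15 fragments to 22.8% at 25 to 29 and is 36.8% in the last class.

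The kinds of background were similar for grouped and lone narrow peaks in the whole list. Among those of lowest q-value the shares lay further apart, but their intervals overlapped. For the background MACS compares the input at the summit, the input averaged over 1 and 10 kb and its average over the genome, and keeps whichever is highest. The genome-wide mean of 2.04 fragments applied to 175 narrow grouped peaks (32.6%, 28.8 to 36.7%) and to 34.2% of lone ones (31.4 to 37.1%). With groups formed from the peaks that passed a q-value of 1e-05, it applied to 46.0% of grouped (37.6 to 54.7%) and 35.4% of lone narrow peaks (31.9 to 39.0%), with overlapping intervals. The input at the summit applied to 192 (35.8%, 31.8 to 39.9%) and to 33.7% (31.0 to 36.7%). Of the 192, 127 had 3 input fragments, 38 had 4, 17 had 5 and 10 had 6 or more. Both peaks used the same kind of background in 102 of the 220 narrow pairs (46.4%), beside 45.3% of all 386 pairs under 300 bp.

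The highest background of a member, 13 input fragments, was on chromosome 1 from 197982611 to 197982677. This peak also had the most fragments of the 537, at 49, and its fold was 3.16 (95% exact Poisson interval 2.36 to 4.15). Its single neighbour, 154 bp further on, had 32 fragments, a background of 6.38 and a fold of 3.96. Members with the fewest fragments, 13, lay on chromosomes 1 and 16 and had a fold of 4.10 (2.34 to 6.78). The lowest fold, 2.88, belonged to a peak on chromosome 2 from 148722293 to 148722356, where 25 fragments stood against a background of 7. Rank by fold and rank by fragments were therefore different orders.

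The counting intervals of neighbouring narrow peaks mostly overlapped, which does not show that their heights were equal. The higher fold of a pair was 1.27 times the lower at the median of the 220 pairs, with quartiles of 1.12 and 1.5. The median difference was 5 fragments, between medians of 23 for the taller and 18 for the lower, and 7 pairs had equal numbers. The 95% exact Poisson intervals of the fragments were apart in 7 pairs (3.18%, 1.55 to 6.42%), where 9.07% of all 386 pairs under 300 bp were apart. The taller peak was at the lower position in 112 pairs and at the higher in 101. Across the 220 pairs the fragments of both peaks gave a Pearson's r of -0.0335 and a Spearman's rho of -0.0568. These pairs share a library, a peak threshold and overlapping background windows, and no relation is read from the values.

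Beside a wide peak the narrow one was usually the lower. In the 127 mixed groups the tallest wide peak exceeded every narrow one in 110 (86.6%, 79.6 to 91.5%), equalled the tallest narrow one in 5 and was lower in 12. In the 144 pairs of a narrow and a wide peak the median difference was 11.5 fragments, and the intervals were apart in 24 (16.7%, 11.5 to 23.6%). A tall peak is over the threshold for longer, so width and height are linked by construction. In the 87 groups of 1 narrow and 1 wide peak, the narrow peak stood at the lower position in 49 and at the higher in 38. Members of groups with a wide peak and members of narrow groups had close medians, of 19 and 20 fragments and folds of 5.19 and 5.26. Their upper quartiles were 21 and 24 fragments and their maxima 36 and 49.

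**Figure D4:**
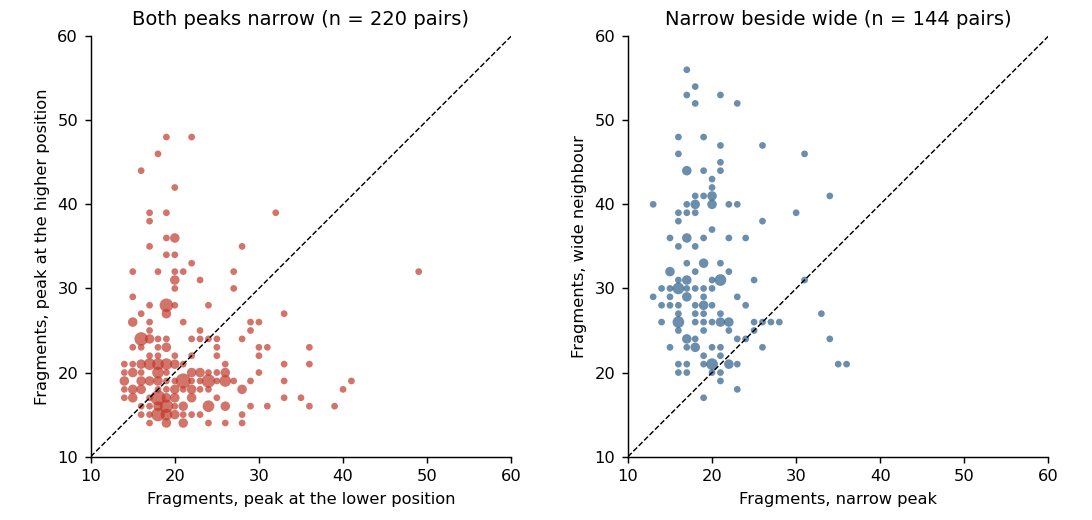
ChIP fragments at the summit of both peaks of a pair under 300 bp apart, with larger dots for several pairs at one point and the line of equal height dashed. On the left, 220 pairs of narrow peaks lie on both sides of the line, and on the right, most of the 144 wide peaks stand above their narrow neighbour.

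At the strictest threshold most groups lost at least 1 peak. Of the 220 narrow pairs, 40 had both peaks at a q-value of at most 1e-05, 124 had one and 56 had neither. All peaks passed it in 62 of the 302 groups, some in 195 and none in 45. Of the 236 members that passed, 126 still had a close neighbour that passed and 110 stood alone. The members as a whole passed in 43.9% of cases, lone narrow peaks in 54.7% and all peaks in 59.7%. Taking peaks out of any list parts some neighbours, and the same counts were not made for all 386 pairs. They are therefore not read as a property of these groups.

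A fold above 10 was given for 12 narrow grouped peaks (2.23%, 1.28 to 3.86%) and for 1.52% of lone narrow peaks (0.936 to 2.45%), where the share among all peaks was 4.7%. Of the 12, 11 were in groups of narrow peaks alone, which held 370 of the 537 members. The share above 10 was 2.97% (1.67 to 5.24%) in those groups. In groups with a wide peak it was 0.599% (0.106 to 3.31%), with overlapping intervals. The 10 members of highest fold had 35 to 48 fragments and folds of 10.3 to 14.3. They had 11 close neighbours, all of which were narrow and lower, with 16 to 32 fragments and folds of 4.87 to 8.35. In 5 of these 11 pairs the intervals of the fragments were apart. This held for 3.18% of the 220 narrow pairs and for 9.07% of all 386 pairs under 300 bp. The 10 members were picked for their high fold, so lower neighbours and intervals apart were favoured by that choice.

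A pair of members shared the highest fold, 14.3 (95% exact Poisson interval 10.6 to 18.8), with 48 fragments each. On chromosome 1, from 31967779 to 31967923, the neighbour lay 53 bp before and had 22 fragments and a fold of 6.71. On chromosome 8, from 118551767 to 118551909, it lay 264 bp before and had 19 fragments and a fold of 5.84. In both pairs the intervals of the fragments were apart, at 35.4 to 63.6 for the tall peaks against 13.8 to 33.3 and 11.4 to 29.7 for the neighbours. The third, on chromosome 12 from 12638760 to 12638876, had 42 fragments and a fold of 12.5 beside a neighbour of 20 fragments at a gap of 151 bp.

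Chromosome 5 held the next 2, from 137238297 to 137238452 and from 138915686 to 138915864. They had 39 and 38 fragments and folds of 11.6 and 11.4, and each had a neighbour of 17 fragments, at gaps of 64 and 157 bp. On chromosome 20, from 3300120 to 3300286, a peak of 36 fragments and a fold of 10.8 lay 66 bp from one of 20. In these 3 pairs every background was the genome-wide mean, so the ratio of folds follows the fragments alone.

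The seventh stood in the middle of a group of 3 on chromosome 7, from 127082023 to 127082138. It had 39 fragments and a fold of 10.7, between neighbours of 32 and 16 fragments. Their folds were almost equal, 4.87 and 4.96, since the first had a background of 5. On chromosome 13, from 85465693 to 85465867, 35 fragments gave a fold of 10.5 beside a peak of 17. The last 2 were on chromosome 1. The peak from 265298848 to 265298937 had 46 fragments, a background of 3, a fold of 10.4 and a neighbour of 18 fragments at 51 bp. That from 174702248 to 174702392 had 35 fragments and a fold of 10.3, and its neighbour at 131 bp was the closest in fold among the 11, with 28 fragments and a fold of 8.35.

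Among the 47 groups of 3, the narrow peaks had a median of 20 fragments in first place, 20 in the middle and 18 in last place, over 36, 29 and 42 members. The highest mean fold of narrow members, 10.2, rested on a single narrow peak of 35 fragments, on chromosome 4 from 123978348 to 123978542, followed by wide peaks of 21 and 33. The next, at 7.93, was made of narrow peaks alone, on chromosome 16 from 19873730 to 19874193. Its 3 peaks were alike, with 27, 30 and 23 fragments, folds of 7.76, 9.03 and 7.0 and gaps of 76 and 75 bp. The third, on chromosome 2 from 185444306 to 185445025, had narrow peaks of 19 and 36 fragments on either side of a wide one of 21, so that here the tallest peak was narrow, and a mean fold of 6.92. In the fourth, on chromosome 7 from 117417450 to 117418143, a wide peak of 33 fragments was followed by narrow ones of 21 and 32 with a mean fold of 6.86. The fifth was the group around the seventh of the peaks above, with a mean fold of 6.84.

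Narrow grouped peaks were found on every autosome and on chromosome X. The 20 autosomes held 533 of them and X held 4. There were none among the 5 narrow peaks on unplaced scaffolds and the 1 on chromosome Y. Chromosome 1 held the most, 74 in 46 groups. The share of narrow peaks that were grouped was highest on chromosome 6, with 41 of 87 (47.1%, 37.0 to 57.5%) in 18 groups, and lowest among autosomes on chromosome 17, with 10 of 53 (18.9%, 10.6 to 31.4%) in 5 groups. These were the only autosomes whose interval left out the overall 33.7%. Among 20 intervals some can miss it from counting error alone. Peaks of 1 group are not independent either, so no difference between chromosomes is read from them. On X it was 4 of 14 (28.6%, 11.7 to 54.6%). Median heights were similar, from 18.5 to 21 fragments on the autosomes and 22.5 on X.

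**Figure D5:**
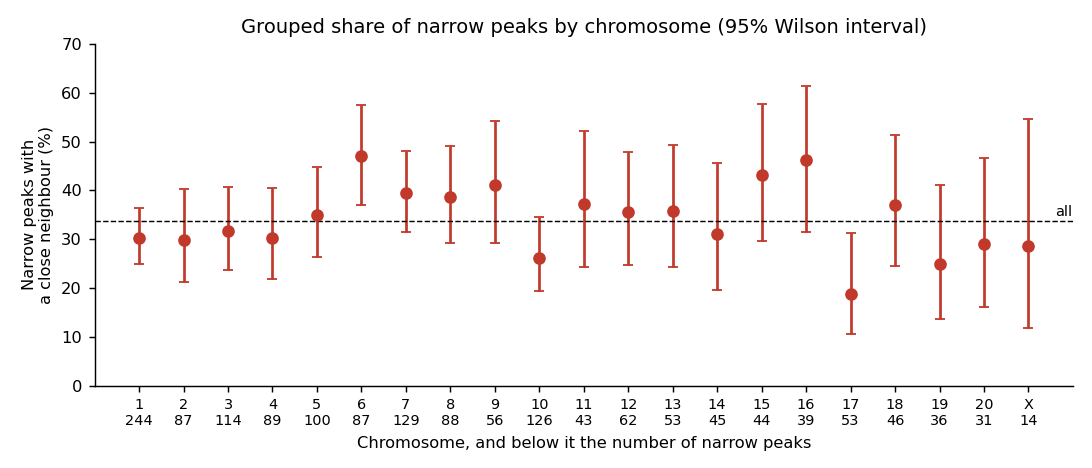
Share of narrow peaks with a close neighbour in percent, by chromosome, with 95% Wilson intervals, the number of narrow peaks under each chromosome and the overall 33.7% dashed. Chromosome 6, at 47.1%, and chromosome 17, at 18.9%, are the only autosomes whose interval misses the line.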

How the data were processed

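Crosslinked chromatin was cut with micrococcal nuclease, which cleaves mainly between nucleosomes, and then sonicated. Its part in where peaks are divided was not tested. The authors' sequencing service mapped the reads of both libraries to rn6 and called peaks once, with MACS2 2.1.0. The input was taken here to be the control, which was not checked, and all values named input rest on that. Bowtie is named in the submitters' processing notes. The deposited fold is the ratio of ChIP pileup to background with a pseudocount of 1 on both. The deposited −log10 p-value and −log10 q-value were used as they stand. The deposited score, 10 times the −log10 q-value without decimals for 100% of peaks, was not used. The list holds called peaks only.

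Fragments and background of each peak were solved from its fold and p-value by the formulae of MACS. A scale of 0.882 gave whole fragments, within 0.002 of pileup, for 100% of peaks (52.6% for the next best scale). On data simulated with the same formulae 100% of 2000 peaks were recovered. This checks the solving step only, not whether the deposited values follow the formulae. The numbers were not compared with reads or with the pileups in the paper's supplement. Read totals were not used, so depth is known only at each summit. For 3 peaks more than 1 solution was possible.

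MACS drops stretches shorter than its fragment length, so the shortest width, 55 bp, is a limit of the method. The sheared DNA reported by the paper was longer than this length. Neighbouring peaks can therefore hold reads of the same DNA fragments and need not be separate sites, which was not tested. With 1 library of each kind no test was possible. Shares have 95% Wilson intervals, fragments and folds exact Poisson intervals with the background held fixed, and medians intervals from order statistics. All cover counting error only, and summits are chosen for their height. Starts were raised by 1.

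Named peaks were the groups of 4, the 5 groups of 3 and 10 members of highest fold, and the extremes of gap, width, fragments and background. The peaks and these rules were chosen with earlier results of these data known. Genes, sequences and motifs were not analysed here, since no genome of rn6 was used. Python 3.11.15, numpy 2.4.6, pandas 2.3.3, scipy 1.17.1 and matplotlib 3.10.9 were used.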

Additional observations from a re-analysis of the deposited data

How the results depend on the processing

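Of 93 alternatives listed, 87 were run, and 3 were added after seeing the data. Of the 90 values, 76 stayed within the interval of the value reported or, for counts, within 1.5 times it. The share of narrow peaks with a close neighbour was 29.6% with gaps under 200 bp, 36.6% under 500 bp and 37.6% under 1000 bp, in place of 33.7%. A larger limit can only add neighbours. Among peaks that passed a q-value of 1e-05 the share fell to 15.5%, with 126 narrow grouped peaks in 85 groups. The median fold was then 6.42 for grouped and 6.20 for lone narrow peaks, with overlapping intervals, the opposite order to 5.26 and 5.50. The median fragments were 23 and 24. The genome-wide background applied to 46.0% of grouped and 35.4% of lone narrow peaks, again with overlapping intervals. The higher fold of a pair was 1.17 times the lower. The filter removes low peaks by construction. With a pseudocount of 0 the median folds were 6.93 and 7.35. Width limits of 150 and 250 bp, a q-value of at most 0.01 and the first narrow peak of each group moved none of these values. The 6 alternatives on transcription starts and motifs were not run. No replicate could be left out with 1 library per group. No paired analysis was possible because the ChIP and the input were 1 library each, which leaves a single pair. Depth limits single peaks, since a narrow peak at the median height of 19, with the lowest background, had an interval of fold from 3.65 to 8.93.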

Other observations

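Having a neighbour varied little with width. The share of narrow peaks with a close neighbour was 38.6% at the shortest width of 55 bp (95% Wilson interval 29.7 to 48.4%, 101 peaks) and between 31.3% and 36.6% in the 6 wider classes, with all intervals overlapping. Summits lay near the middle of the peak, at 0.5 of the width at the median for grouped and 0.482 for lone narrow peaks, with quartiles of 0.310 and 0.669 for grouped ones. A further peak 300 to 1000 bp away was listed for 18 of the 537 narrow grouped peaks, and 62 of the 1055 lone ones had a peak at that distance. A side with a close neighbour was not counted, and every grouped peak had such a side while lone peaks had none. The counts are thus on unlike bases and are not compared. Together the narrow grouped peaks covered 54937 bp.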
